A study of Bos taurus with 12 samples.

Results

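The insulin-like growth factor (IGF) axis was examined through 10 genes of 27270 in the tables: the ligands IGF1 and IGF2, the receptors IGF1R and IGF2R, and the binding proteins IGFBP2, IGFBP3, IGFBP4, IGFBP5, IGFBP6 and IGFBP7. The genes were chosen by name, and all 10 passed the filter on low counts. RNA came from the whole corpus luteum of mixed breed cows in the mid luteal phase (day 10), removed by ovariectomy. All cows were non-lactating, multiparous beef animals whose cycles had been synchronised with earlier PGF2α injections, so the controls had also met PGF2α before. Control cows received saline i.m., and treated cows received a luteolytic dose of PGF2α i.m. and were sampled 4 h or 12 h later. Each group held 4 cows, with 1 library per cow, and the labels give no time after saline for the controls. The study asked how the corpus luteum responds to PGF2α, the hormone that triggers luteolysis.

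IGF1 and IGF2 are growth factors that bind IGF1R, a receptor tyrosine kinase that signals through PI3K, AKT and mTOR. IGF2R, which is also the cation-independent mannose 6-phosphate receptor, binds IGF2 and carries it to lysosomes for breakdown. IGF binding proteins hold the ligands outside the cell and control how much of them reaches IGF1R. Proteases release the ligands by cutting the binding proteins. In the ovary, IGFs are known to support steroid production and cell survival.

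Total expected counts ranged from 10263310 to 22600213 per cow. The mean transcript length, weighted by expression, was 1413 to 1577 bases at 12 h and 1622 to 1746 bases in the other cows. Steroidogenic luteal markers were high in every cow, with a summed level of 30916 to 48021 TPM (transcript abundance scaled for transcript length and library size) in controls, 29121 to 33999 at 4 h and 14781 to 27107 at 12 h. Of these markers 6 of 8 fell at 12 h (median log2 fold change -1.41), where 25.3% of all genes tested fell. Macrophage and monocyte markers summed to 227 to 682 TPM in controls and to 574 to 903 at 12 h, and 9 of 12 passed the test as higher at 12 h. Of the neutrophil markers, 4 of 6 rose at 12 h. These rises were 75.0% of the macrophage and monocyte list and 66.7% of the neutrophil list, where 23.6% of all genes tested rose. Endothelial markers summed to 691 to 1043 TPM in controls, 744 to 1051 at 4 h and 623 to 1155 at 12 h. The tissue is a mixture of cells, and fewer cells of a type cannot be told apart from less RNA per cell.

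The axis was dominated by 3 transcripts. In controls, IGFBP7 averaged 730 ± 159 TPM (mean ± SD, n = 4 cows here and below), IGFBP4 683 ± 163 TPM and IGF2 582 ± 273 TPM. The cows of these 3 genes overlapped, so their order is not set. IGFBP3 followed at 202 ± 50.8 TPM, IGFBP6 at 111 ± 38.8 TPM, IGF2R at 71.6 ± 10.7 TPM and IGFBP5 at 54.9 ± 13.3 TPM. IGF1R was lower than these in all 4 control cows, at 27.8 ± 3.28 TPM. IGF1 (3.29 ± 0.266 TPM) and IGFBP2 (3.21 ± 1.61 TPM) were the lowest and overlapped. At 4 h the leading 3 genes were IGF2 (858 ± 108 TPM), IGFBP4 (747 ± 118 TPM) and IGFBP7 (696 ± 51.7 TPM), which again overlapped. At 12 h IGFBP7 led at 1157 ± 373 TPM, above IGF2 at 847 ± 384 TPM, with overlapping cows.

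**Figure D1:**
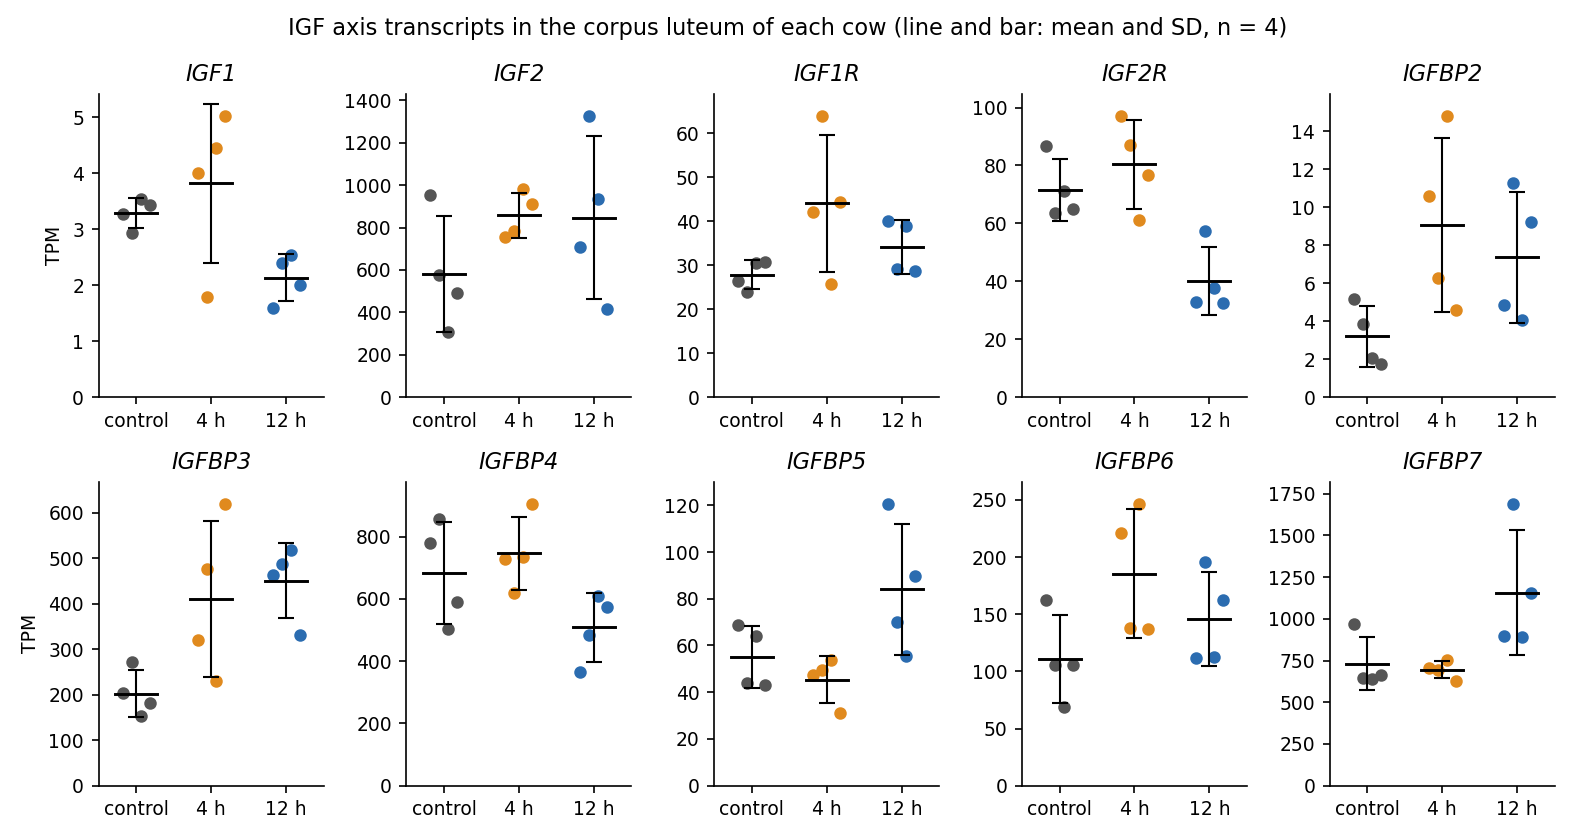
TPM of the 10 IGF axis genes in the corpus luteum of each cow, for control, 4 h and 12 h groups; points are cows, and the line and bar are the mean and SD of 4 cows. All 4 cows at 12 h lie below all 4 controls for IGF1 and IGF2R, and above them for IGFBP3.

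At 4 h post-PGF2α, 2 of the 10 genes passed the test (edgeR, Benjamini-Hochberg adjusted p under 0.05), and both rose: IGFBP2 and IGFBP3. Of the 14481 genes tested, 14.2% passed at 4 h, with 8.65% higher and 5.59% lower. At 12 h, 8 of the 10 passed: IGF2, IGF1R, IGFBP2, IGFBP3, IGFBP5, IGFBP6 and IGFBP7 rose, and IGF2R fell. Of the genes tested, 48.9% passed at 12 h, with 23.6% higher and 25.3% lower. The median log2 fold change of the 10 genes was 0.42 at 4 h and 0.78 at 12 h, against -0.03 and 0.01 over the genes tested. Tested between 12 h and 4 h, IGFBP5 and IGFBP7 were higher and IGF1 and IGF2R lower at 12 h, where 46.7% of the genes tested passed, 22.5% higher and 24.3% lower. The comparisons share cows, so their results are not independent of each other.

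**Figure D2:**
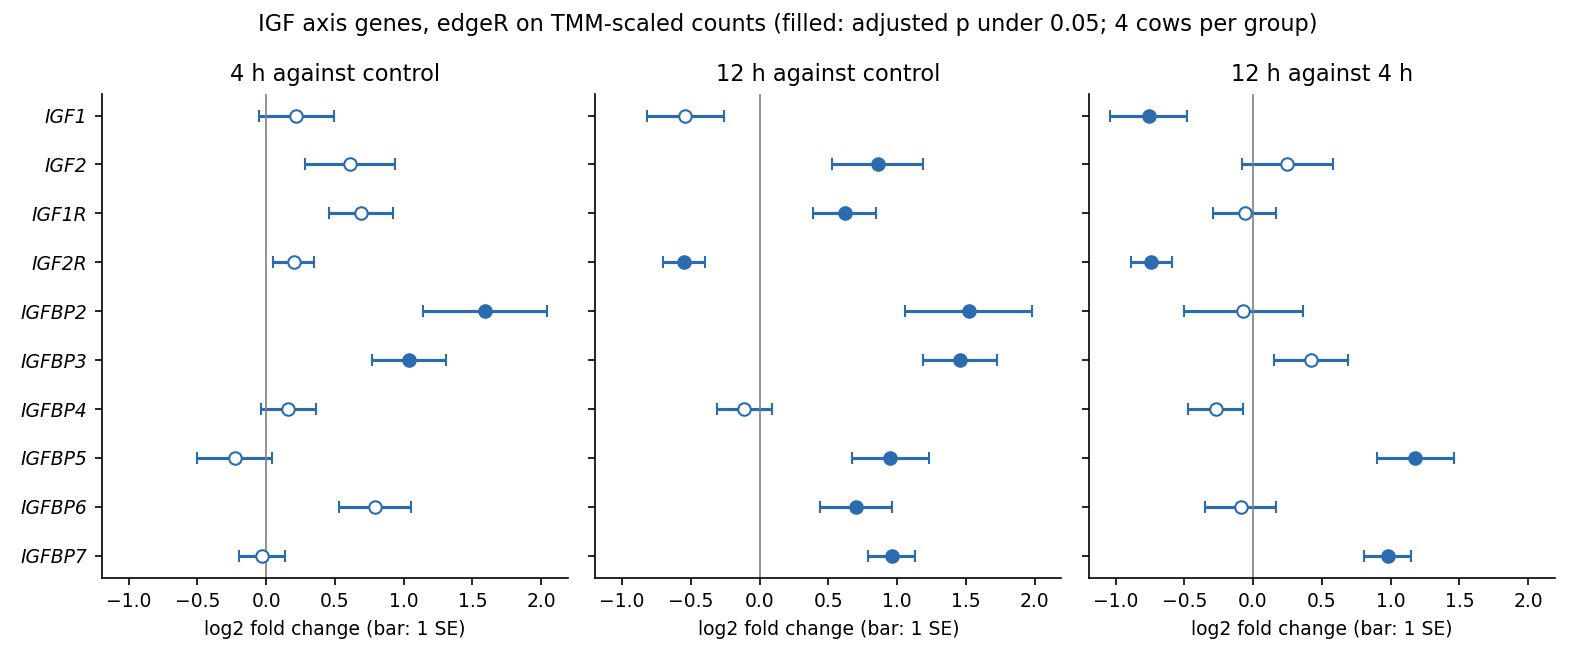
Log2 fold change of the 10 IGF axis genes from edgeR in the 3 comparisons (x axis, with a bar of 1 SE on each side); filled points have an adjusted p under 0.05. IGFBP2 and IGFBP3 are filled at 4 h, and 8 genes are filled at 12 h, of which IGF2R alone lies left of 0.

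The scale affects these counts. The test above uses counts scaled between libraries, and under it the typical gene did not shift. On log2(TPM + 1), tested with limma, the median of all genes fell by 0.25 at 12 h, and 4 of the 10 genes passed at 12 h, with 3 higher (IGFBP2, IGFBP3 and IGFBP7) and 1 lower (IGF2R). Of the 14481 genes tested, 1509 were higher and 5631 lower on that scale. With an offset that takes out, library by library, the dependence of counts on transcript length, 6 rose at 12 h and none fell. With that offset 3436 of the 14481 genes tested rose and 3323 fell. In TPM alone, 1 of the 10 had all 4 cows at 12 h above all 4 controls, IGFBP3, where 9.12% of genes did, and 2 had them below, IGF1 and IGF2R, where 34.9% did. At 4 h no member was apart from controls in TPM, where 8.31% of genes were above and 10.7% below. The share of all genes apart in TPM between 12 h and 4 h was not counted.

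Among the ligands, IGF2 far exceeded IGF1. IGF2 TPM was 306, 491, 574 and 954 in the control cows. At 4 h it was 753, 784, 913 and 982 TPM. At 12 h it was 416, 708, 936 and 1327 TPM. The 4 h cows were close together, while the controls (SD 273 TPM) and the 12 h cows (SD 384 TPM) spread widely, and all groups overlapped. The log2 fold change of IGF2 was 0.61 (SE 0.33, adjusted p = 0.236, edgeR) at 4 h and 0.86 (SE 0.33, adjusted p = 0.0454, edgeR) at 12 h. The 12 h call was near the threshold. It was lost on leaving out cow6464, cow7367 or cow7514 of the controls, cow6455 or cow6456 of the 4 h group, or cow5266, cow6314 or cow7382 of the 12 h group, with values of 0.66 to 0.91 and adjusted p up to 0.112 (edgeR). It was also lost on log2(TPM + 1), where the value was 0.54 (adjusted p = 0.221, limma).

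IGF1 was scarce, with 21 to 75 counts per cow. Control cows held 2.93, 3.27, 3.43 and 3.54 TPM. The 4 h cows ranged more widely, at 1.78, 4.01, 4.45 and 5.02 TPM. The 12 h cows held 1.59, 2.01, 2.39 and 2.53 TPM, and each was below every control cow. Relative to control IGF1 was at log2 0.22 (SE 0.27, adjusted p = 0.637, edgeR) at 4 h and -0.54 (SE 0.28, adjusted p = 0.125, edgeR) at 12 h, and neither passed, though the 12 h value did without cow5341 (-0.51, adjusted p = 0.0395). IGF1 fell between 4 h and 12 h, by 0.76 on the log2 scale (SE 0.28, adjusted p = 0.0391, edgeR). That call was lost on leaving out any of cow4285, cow6464, cow7514, cow4291, cow6455, cow6456, cow5266, cow6314 or cow7475, with log2 values of -0.77 to -0.62 and adjusted p up to 0.113 (edgeR). The ratio of IGF2 to IGF1 in TPM was 179 ± 87.3 in controls, 258 ± 123 at 4 h and 394 ± 146 at 12 h, and the groups overlapped.

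Of the receptors, IGF1R rose and IGF2R fell at 12 h. IGF1R, the signalling receptor, was 23.9, 26.4, 30.4 and 30.7 TPM in controls. The 4 h cows held 25.7, 42.2, 44.3 and 63.9 TPM, and 3 of them were above every control. The 12 h cows held 28.6, 29.2, 39.0 and 40.0 TPM. Relative to control IGF1R was at log2 0.69 (SE 0.23, adjusted p = 0.0687, edgeR) at 4 h, and 0.62 (SE 0.23, adjusted p = 0.0420, edgeR) at 12 h. At 4 h DESeq2 called the gene (0.71, adjusted p = 0.0253), as did edgeR without cow6455 (0.86, adjusted p = 0.0196). At 12 h the call was lost without any of the 4 control cows, without cow5266 or without cow7382 (0.48 to 0.70, adjusted p up to 0.127, edgeR), and on log2(TPM + 1) (0.28, adjusted p = 0.316, limma).

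IGF2R, the clearance and lysosomal sorting receptor, was 63.4, 64.8, 71.2 and 86.8 TPM in controls. At 4 h it was 61.1, 76.6, 86.9 and 97.1 TPM, which overlapped controls. At 12 h it was 32.4, 32.9, 37.8 and 57.3 TPM, and each cow was below every cow of the other groups. IGF2R fell by 0.55 on the log2 scale at 12 h against control (SE 0.15, adjusted p = 0.0110, edgeR) and by 0.74 against 4 h (SE 0.15, adjusted p = 0.00195, edgeR). Against control at 4 h the value was 0.20 (SE 0.15, adjusted p = 0.429, edgeR). The IGF2R transcript was the longest of the 10, at 9058 bases. With the transcript length offset the 12 h value was -0.09 (adjusted p = 0.594, edgeR) against control and -0.17 (adjusted p = 0.307, edgeR) against 4 h, so both calls were lost, whereas without the offset both held with each cow left out. IGF2R exceeded IGF1R by 2.60 ± 0.508 times in controls, 1.94 ± 0.483 times at 4 h and 1.22 ± 0.509 times at 12 h in TPM, and at 12 h cow5266 and cow7382 held less IGF2R than IGF1R.

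Among the binding proteins, IGFBP3 rose at both times. IGFBP3 carries most of the circulating IGF in a complex with the acid labile subunit. Control cows held 153, 181, 203 and 272 TPM. The 4 h cows held 229, 319, 477 and 618 TPM, and the 12 h cows held 331, 464, 488 and 519 TPM, above every control. The rise was 2.06-fold at 4 h (log2 1.04, SE 0.27, adjusted p = 0.0236, edgeR) and 2.76-fold at 12 h (log2 1.46, SE 0.27, adjusted p = 8.75e-04, edgeR). The 4 h call was lost on leaving out cow7367 or cow7514 of the controls, or cow5341 or cow6456 of the 4 h group (log2 0.81 to 1.0, adjusted p up to 0.0695, edgeR). The 12 h call held under all 22 alternative settings. Between 12 h and 4 h the value was 0.42 (SE 0.27, adjusted p = 0.214, edgeR), and without cow6456 it was 0.69 (adjusted p = 0.0484).

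IGFBP2, which besides IGFs can bind integrins, was the lowest of the binding proteins, with 33 to 231 counts per cow. Its control values were 1.73, 2.07, 3.85 and 5.17 TPM. They were 4.57, 6.28, 10.6 and 14.8 TPM at 4 h, and 4.04, 4.87, 9.24 and 11.3 TPM at 12 h. Each group spread about 3-fold and the highest control overlapped the treated cows. The rise was 3.01-fold at 4 h (log2 1.59, SE 0.45, adjusted p = 0.0360, edgeR) and 2.86-fold at 12 h (log2 1.52, SE 0.46, adjusted p = 0.0155, edgeR). The 4 h call was lost on leaving out cow6464, cow7367, cow7514, cow4291 or cow6455 (log2 1.2 to 1.75, adjusted p up to 0.0993, edgeR), and the 12 h call held under all 22 alternatives, with adjusted p up to 0.0497.

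IGFBP7 and IGFBP5 rose at 12 h, both against control and against 4 h. IGFBP7 binds IGFs weakly compared with the other family members and is a secreted vessel wall and matrix protein. It was 641, 647, 663 and 969 TPM in controls and 629, 694, 707 and 754 TPM at 4 h. The 12 h cows held 891, 897, 1155 and 1685 TPM, each above every 4 h cow and above all controls except cow4285. Relative to control IGFBP7 was at log2 -0.03 (SE 0.17, adjusted p = 0.935, edgeR) at 4 h and 0.96 (SE 0.17, adjusted p = 7.13e-04, edgeR) at 12 h. Between 12 h and 4 h it was 1.98-fold higher (log2 0.98, SE 0.17, adjusted p = 6.71e-04, edgeR). Both calls held under all 22 alternatives.

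IGFBP5, a binding protein that attaches to extracellular matrix, was 42.9, 44.1, 64.2 and 68.6 TPM in controls and 31.0, 47.2, 49.5 and 54.0 TPM at 4 h. At 12 h it was 55.7, 70.0, 89.9 and 120 TPM, above every 4 h cow but overlapping controls. Relative to control it was at log2 -0.23 (SE 0.27, adjusted p = 0.622, edgeR) at 4 h. It rose 1.93-fold at 12 h (log2 0.95, SE 0.28, adjusted p = 0.0133, edgeR), and was 2.27-fold higher at 12 h than at 4 h (log2 1.18, SE 0.28, adjusted p = 0.00428, edgeR). Without cow5266 the 12 h value against control was 0.65 (adjusted p = 0.0505, edgeR), and on log2(TPM + 1) it was 0.58 (adjusted p = 0.0656, limma). The difference from 4 h held under all 22 alternatives.

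IGFBP6, which prefers IGF2 over IGF1, was 68.7, 106, 106 and 163 TPM in controls. It was 137, 138, 221 and 246 TPM at 4 h, and 112, 113, 162 and 196 TPM at 12 h, and the highest control overlapped both. Relative to control IGFBP6 was at log2 0.79 (SE 0.26, adjusted p = 0.0664, edgeR) at 4 h and 0.70 (SE 0.26, adjusted p = 0.0448, edgeR) at 12 h. DESeq2 called it at 4 h (0.81, adjusted p = 0.0214), as did edgeR without cow4285 (1.03, adjusted p = 0.0266) or without cow6456 (0.94, adjusted p = 0.0479). The 12 h call was lost on leaving out cow6464, cow7367, cow7514, cow5266, cow6314 or cow7475 (0.53 to 0.75, adjusted p up to 0.121, edgeR), with the length offset (0.57, adjusted p = 0.103, edgeR), and on log2(TPM + 1) (0.42, adjusted p = 0.226, limma).

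IGFBP4, the binding protein that the protease PAPPA cuts, was abundant in every group and passed in no comparison with edgeR. Controls held 504, 591, 779 and 857 TPM, the 4 h cows 618, 729, 736 and 903 TPM and the 12 h cows 364, 484, 574 and 610 TPM. Relative to control IGFBP4 was at log2 0.16 (95% interval -0.22 to 0.55, adjusted p = 0.626, edgeR) at 4 h and -0.11 (95% interval -0.49 to 0.28, adjusted p = 0.671, edgeR) at 12 h. In TPM each 12 h cow lay below each 4 h cow. On log2(TPM + 1) IGFBP4 fell by 0.57 between 4 h and 12 h (adjusted p = 0.0314, limma), against -0.27 (SE 0.20, adjusted p = 0.271) with edgeR. The median of all genes on log2(TPM + 1) was -0.21 between these times, with 1304 genes higher and 5194 lower at 12 h (limma).

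In TPM, IGFBP4 took a smaller share of the binding protein transcripts in every 12 h cow than in every control cow. The 6 IGFBP transcripts summed to 1784 ± 340 TPM in controls, 2093 ± 155 TPM at 4 h and 2353 ± 415 TPM at 12 h, and the groups overlapped. IGFBP4 made up 38.1 ± 4.29% of the sum in controls and 21.9 ± 5.27% at 12 h, and the highest cow at 12 h (27.8%) was below the lowest control (35.2%). IGFBP3 made up 11.4 ± 2.02% in controls, 19.4 ± 7.15% at 4 h and 19.5 ± 4.84% at 12 h. IGFBP7 made up 41.1 ± 5.21%, 33.5 ± 4.39% and 48.4 ± 7.09%. In controls IGFBP4 and IGFBP7 together held 77.9 to 79.9% of the sum in each cow, and in treated cows 64.3 to 74.5%. IGFBP6 stayed between 4.79 and 12.1%, IGFBP5 between 1.34 and 6.13% and IGFBP2 between 0.109 and 0.728%. On TMM-scaled CPM, which is not per length, the mean shares in controls and at 12 h were 41.6 and 23.8% for IGFBP4, 14.9 and 25.4% for IGFBP3, and 34.6 and 40.7% for IGFBP7. These moved the same way as in TPM, though the share of IGFBP7 in each group and that of IGFBP3 in controls and at 12 h differed from TPM by more than 1 SD. No test was run on these percentages, since they are fixed to sum to the whole.

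**Figure D3:**
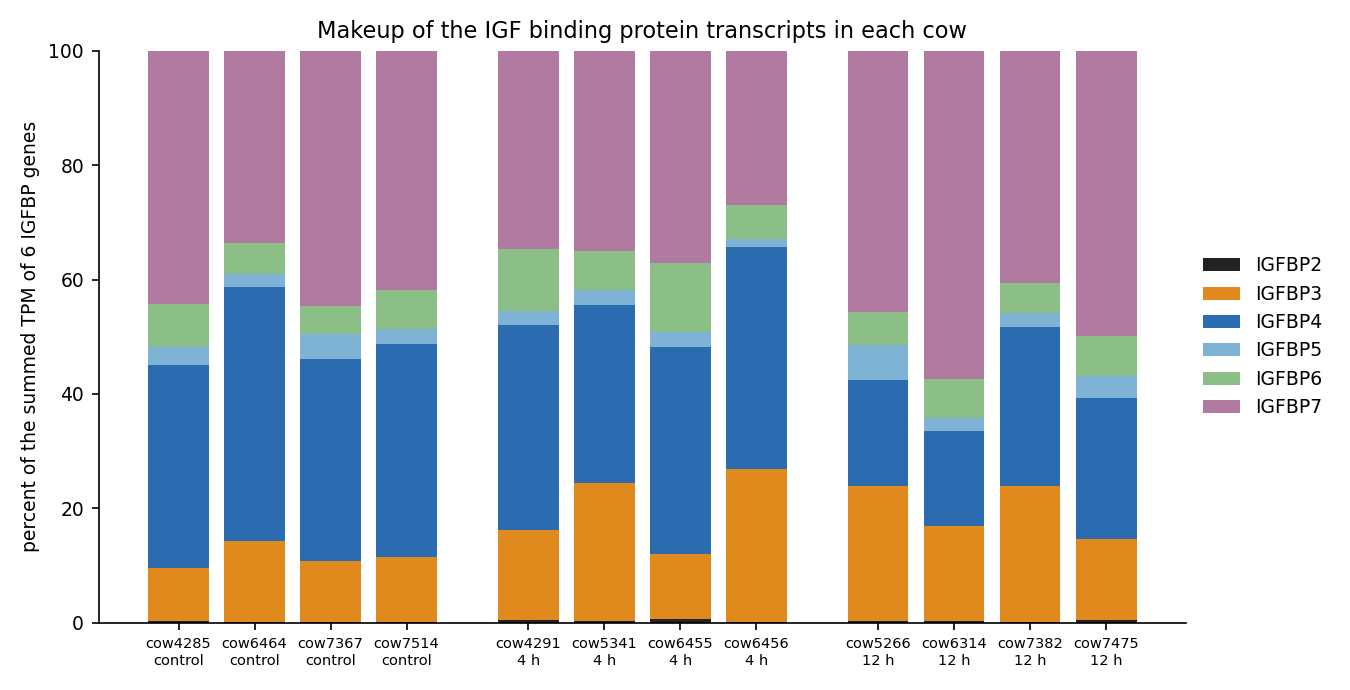
Percent of the summed TPM of the 6 IGFBP genes held by each gene (y axis) in each cow (x axis, with its group). The IGFBP4 band is narrower in all 4 cows at 12 h (16.5 to 27.8%) than in controls (35.2 to 44.4%).

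Of the binding protein genes, 2 pairs are neighbours on the bovine genome (ARS-UCD 1.2, coordinates from the tables). IGFBP2 (chromosome 2, 104619851 to 104649017) and IGFBP5 (chromosome 2, 104659123 to 104680014) are 10.1 kb apart. IGFBP2 rose at both times and IGFBP5 at 12 h. IGFBP3 (chromosome 4, 76116349 to 76124835) lies 6.5 kb from IGFBP1 (chromosome 4, 76131287 to 76136846). IGFBP4 is at chromosome 19, 40672669 to 40684245, IGFBP6 at chromosome 5, 26878956 to 26883908, and IGFBP7 at chromosome 6, 72405716 to 72486115. The ligands lie at chromosome 5, 66191602 to 66264083 (IGF1) and chromosome 29, 49394907 to 49422468 (IGF2). The receptors lie at chromosome 21, 7780293 to 8080394 (IGF1R) and chromosome 9, 96197493 to 96300017 (IGF2R). These spans are whole genes, exons and introns included.

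IGFBP1, the neighbour of IGFBP3 and a binding protein better known from liver and endometrium, was listed with the protein partners rather than with the 10 genes. It was near absent from saline-treated cows, with 1 count over the 4 control cows. The 4 h cows held 2.96, 4.01, 4.48 and 5.80 TPM, from 414 counts in all. The 12 h cows held 5.57, 7.51, 9.85 and 12.0 TPM, from 739 counts. Per TMM-scaled library total, the counts were 397 times those of controls at 4 h (exact 95% interval 70.9 to 15735) and 927 times at 12 h (exact 95% interval 166 to 36673). These intervals cover counting error only. The adjusted p was 1.01e-05 at 4 h and 1.27e-06 at 12 h (edgeR), and IGFBP1 was higher in 4 of 4 cows at each time. Between 12 h and 4 h it rose by a further log2 1.31 (SE 0.30, adjusted p = 0.00349, edgeR).

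The mean transcript length that RSEM assigned to a gene, which shifts when its transcripts are used in other proportions, could vary for 5 of the 10 genes. This description was chosen after the values were seen. For IGF1 (3 transcripts) it was 1393 to 1490 bases in controls, 1391 to 1460 at 4 h and 1214 to 1329 at 12 h. For IGF2 (5 transcripts) it was 3641 to 3686 bases in controls, 3638 to 3697 at 4 h and 3729 to 3747 at 12 h. The 12 h cows were thus apart from controls for both ligands, in opposite directions. At 12 h the IGF1 lengths rest on only 21 to 34 counts per cow, against 13793 to 58500 for IGF2. Among 6680 genes with more than 1 transcript, 8.85% were shorter and 12.8% longer in all 4 cows at 12 h than in all 4 controls. The shorter mean length of whole libraries at 12 h moved with the change of IGF1, and its part in it was not tested.

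Within groups, IGF2, IGFBP2, IGFBP6 and IGFBP7 were highest in the same cows: cow4285 of the controls, cow6455 at 4 h and cow6314 at 12 h. This was seen after the values were known. Of all genes tested, 5.83% were highest in these 3 cows. Of the pericyte and smooth muscle markers, 6 of 10 were (ACTA2, TAGLN, MYH11, CSPG4, DES and CNN1), and RGS5, PDGFRB, MCAM and NOTCH3 were not. In the other 7 lists, 0 marker genes were. The summed pericyte and smooth muscle level was 687 to 2107 TPM in controls, 868 to 2002 at 4 h and 931 to 5204 at 12 h. At 12 h 2 of its 10 genes rose and 1 fell, or 20.0 and 10.0%, where 23.6 and 25.3% of all genes tested did. Fibroblast markers summed to 21471 TPM in cow4285 and 19607 TPM in cow6314, and to 6949 to 13336 TPM in the other 10 cows. The endothelial sum was also highest in cow4285 of the controls (1043 TPM) and cow6314 at 12 h (1155 TPM), but in cow6456 at 4 h (1051 TPM). The part of these cells in the levels was not tested. Without cow6455 and cow6314, IGFBP7 and IGFBP2 still rose at 12 h. IGF2 (0.64, adjusted p = 0.149, edgeR) and IGFBP6 (0.57, adjusted p = 0.0898, edgeR) did not pass. Of the 10 genes 5 rose and 1 fell, where 3284 and 3796 of the 14481 genes tested did. This removal took out the highest treated cows and kept cow4285, the highest control. It thus tends to lower the 12 h values of genes picked by these cows, and the part of these cows in the calls was not tested. IGFBP3 and IGFBP4 followed other cows and were highest in cow6464, cow6456 and cow7382.

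**Figure D4:**
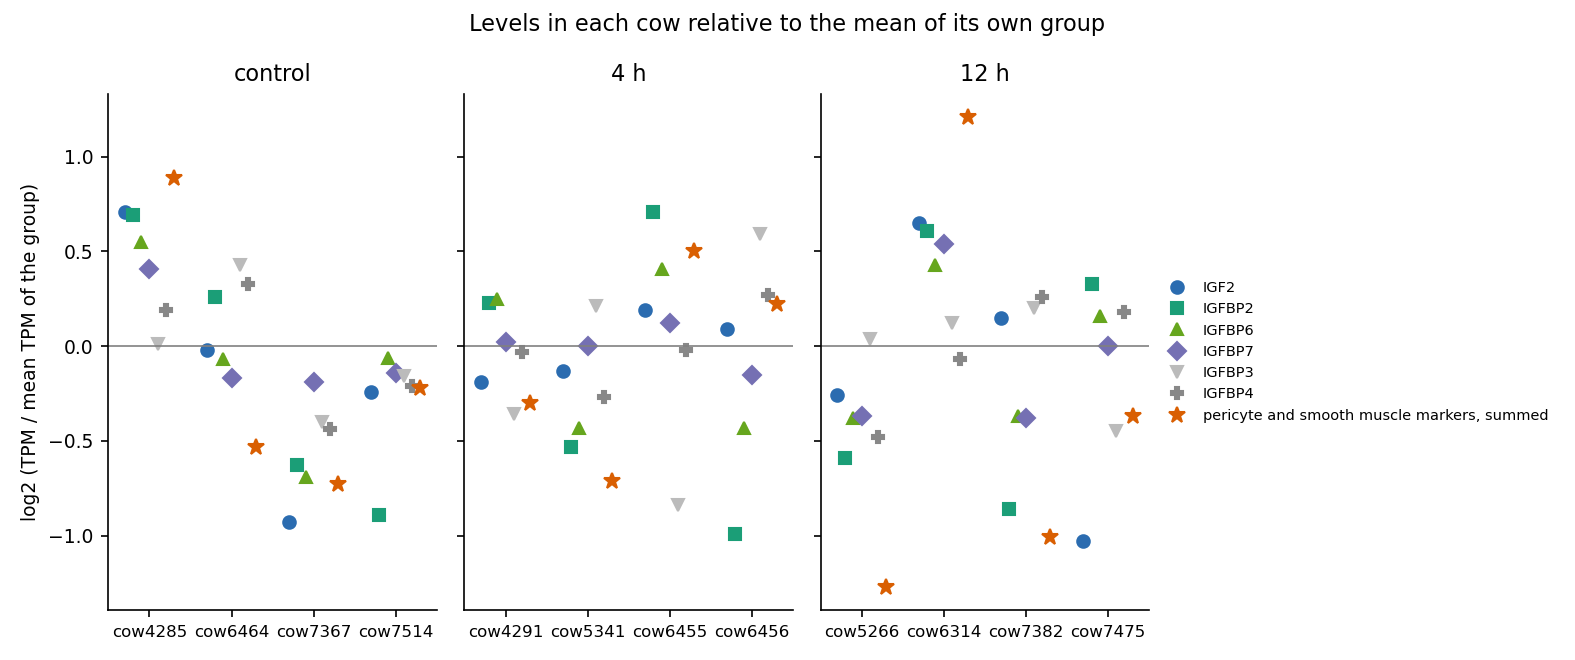
Log2 of TPM over the mean TPM of the cow's own group (y axis) in each cow (x axis), for 6 IGF axis genes and for the summed pericyte and smooth muscle markers (stars). IGF2, IGFBP2, IGFBP6, IGFBP7 and the markers are highest in cow4285, cow6455 and cow6314, while IGFBP3 and IGFBP4 are highest in cow6464, cow6456 and cow7382.

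The genes whose pattern over the 12 cows was most like that of a member were sought for the ligand, the receptor and the binding protein with the smallest p at 12 h, among 10419 genes. The measure was the mean absolute difference in log2 CPM after taking off the control mean. For IGF2 they were FAM110D (0.246), SLC43A1 (0.249) and SLCO2B1 (0.266), where the median over genes was 0.73. For IGF2R they were NDST1 (0.116), ZNF106 (0.119) and PTPRS (0.12), with a median of 0.43. For IGFBP7 they were FUZ (0.106), PLPP5 (0.113) and SMO (0.119), with a median of 0.51.

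Around the axis, 84 genes of proteases and partners, growth hormone signalling, receptor docking, PI3K and AKT, mTOR, IGF2 mRNA-binding and mannose 6-phosphate sorting were listed, and 79 were tested. At 4 h, 7 rose and 4 fell, and these 13.9% are near the 14.2% of all genes tested that passed. At 12 h, 13 rose (16.5%, against 23.6% of all genes tested) and 32 fell (40.5%, against 25.3%), with a median log2 fold change of -0.17 against 0.01 over all genes. On log2(TPM + 1) the 12 h counts were 8 higher and 43 lower (limma), and with the length offset 19 higher and 29 lower (edgeR). Over the 14481 genes tested they were 1509 higher and 5631 lower, and with the offset 3436 and 3323. The 32 listed genes that fell had a median transcript length of 2646 bases, all 3664 genes that fell one of 2707 bases, and the genes tested one of 2216 bases.

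**Figure D5:**
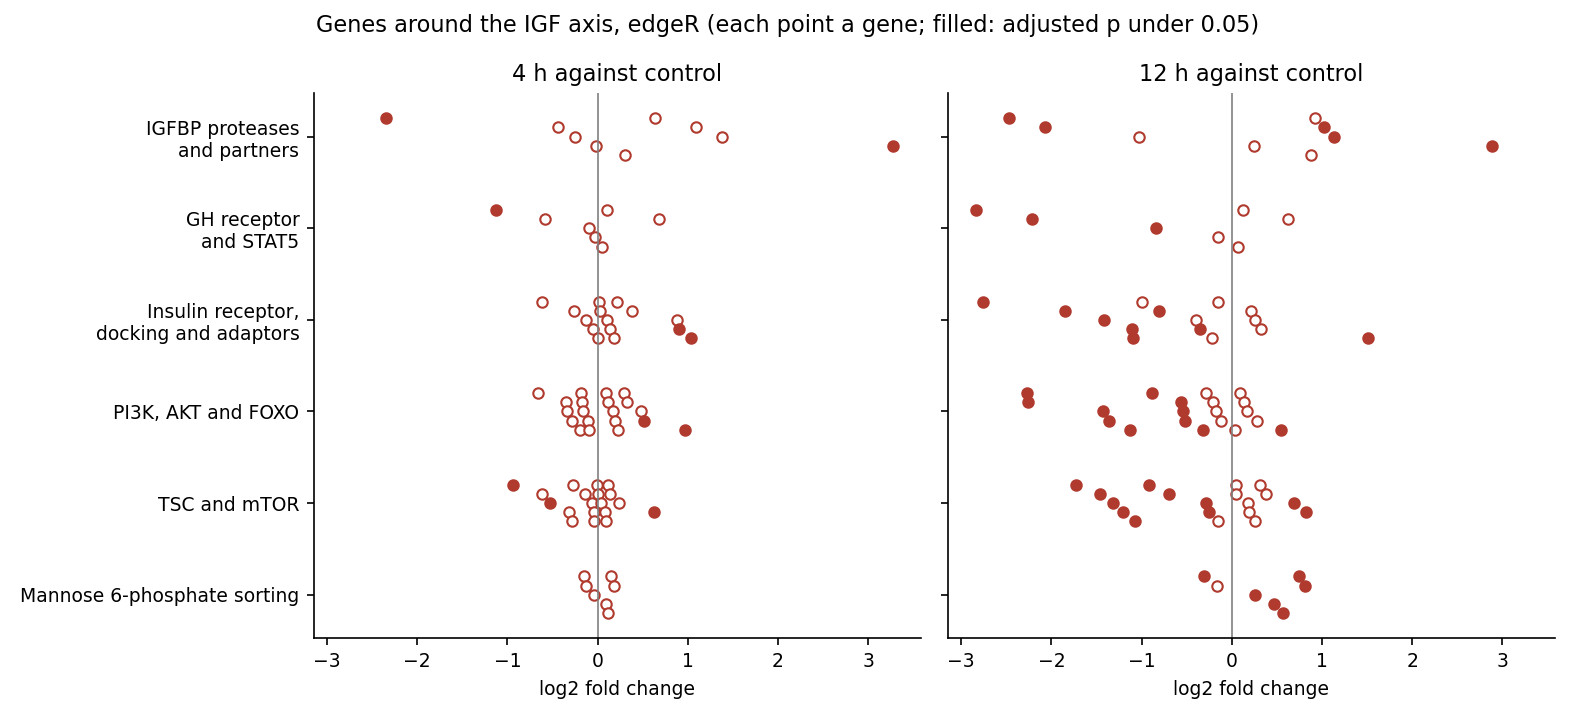
Log2 fold change from edgeR at 4 h and at 12 h against control (x axis) of the listed genes around the IGF axis, by list; each point is a gene, filled where the adjusted p is under 0.05. IGFBP1, which had 1 count in controls, and the single tested IGF2 mRNA-binding gene are not drawn. Few points are filled at 4 h, and at 12 h most filled points of the docking, PI3K and mTOR lists lie left of 0.

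Of the proteases and complex partners, 10 of 12 were tested, of which 2 rose and 1 fell at 4 h, and 4 rose and 2 fell at 12 h. These are 30% and 60% of the list, where 14.2 and 48.9% of all genes tested passed. By direction, 40.0% of the list rose and 20.0% fell at 12 h, where 23.6 and 25.3% of all genes tested did. The list also holds IGFBPL1, KAZALD1 and the binding protein IGFBP1, described above. IGFBP1 is counted among the genes that rose at 4 h and at 12 h. PAPPA, the protease that cuts IGFBP4 and IGFBP5, was 7.79, 11.2, 15.0 and 19.9 TPM in controls, 4.49, 8.77, 11.0 and 20.5 TPM at 4 h and 1.5, 1.59, 2.34 and 2.42 TPM at 12 h. It fell by 2.47 on the log2 scale at 12 h (SE 0.42, adjusted p = 4.68e-04, edgeR). STC2, a stanniocalcin that inhibits PAPPA, fell at both times, from 3.31 ± 1.16 TPM to 0.623 ± 0.216 at 4 h (log2 -2.34, SE 0.40, adjusted p = 0.00248, edgeR) and 0.637 ± 0.372 at 12 h (log2 -2.07, SE 0.40, adjusted p = 0.00111, edgeR). The serine protease HTRA1 was 764 ± 197 TPM in controls and 1257 ± 200 TPM at 12 h, a TPM ratio of 1.64. On the scaled counts HTRA1 rose 2.04-fold (log2 1.03, SE 0.15, adjusted p = 1.71e-04, edgeR). HTRA3, its relative, was 3.02 ± 1.24 TPM in controls, 6.42, 8.52, 20.6 and 73.2 TPM at 4 h, and 17.7 ± 6.28 TPM at 12 h. It rose by log2 3.27 (SE 0.73, adjusted p = 0.0120) and 2.89 (SE 0.73, adjusted p = 0.00592, edgeR). The highest 4 h cow was cow6455, and without it the 4 h value was 2.0 (adjusted p = 0.0157, edgeR). PAPPA2 and ADAM28 were under the count minimum, with PAPPA2 at no more than 1 count in each group.

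Growth hormone induces IGF1 in liver through its receptor GHR, JAK2 and STAT5. Of the 7 genes of that arm, 1 fell at 4 h and 3 at 12 h, and none rose. The falls were 14.3 and 42.9% of the list, where 5.59 and 25.3% of all genes tested fell. In either direction, 14.2 and 48.9% of all genes tested passed. GHR was 67.4, 74.3, 83.7 and 98.2 TPM in controls and 9.79, 13.0, 14.3 and 16.8 TPM at 12 h, and fell by 2.21 on the log2 scale (SE 0.22, adjusted p = 1.84e-05, edgeR). The 4 h cows held 34.8, 54.7, 58.2 and 66.2 TPM, each below every control, and did not pass. PRLR, the prolactin receptor, fell from 8.55 ± 2.56 TPM to 3.86 ± 1.17 at 4 h (log2 -1.13, SE 0.29, adjusted p = 0.0225, edgeR) and to 0.948 ± 0.319 at 12 h (log2 -2.84, SE 0.32, adjusted p = 3.15e-05, edgeR). The 4 h call of PRLR was lost without cow7514, cow4291 or cow6455 (adjusted p up to 0.0809). JAK2, the kinase that both receptors use, fell by 0.84 at 12 h (SE 0.17, adjusted p = 0.00125, edgeR).

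Receptor docking proteins and adaptors link IGF1R and the insulin receptor to PI3K and Ras. Of 15 tested, 2 rose at 4 h, and 1 rose and 7 fell at 12 h, or 13.3 and 53.3% of the list, against 14.2 and 48.9% of all genes tested. By direction, 6.67% rose and 46.7% fell at 12 h, where 23.6 and 25.3% of all genes tested did. INSR, the insulin receptor, was 17.6 ± 4.34 TPM in controls and 5.34 ± 0.878 TPM at 12 h, a TPM ratio of 0.303. On the scaled counts INSR fell to 0.373 times control (log2 -1.42, SE 0.23, adjusted p = 3.86e-04, edgeR). IGF1R rose at the same time, but near the threshold (adjusted p = 0.0420, edgeR), and its call was lost in 8 of 22 alternatives. The tyrosine phosphatase PTPN11 fell by 1.85 (adjusted p = 1.81e-05, edgeR), and the Ras exchange factors SOS1 and SOS2 each by 1.10 (adjusted p = 1.40e-04 and 3.07e-04, edgeR) at 12 h. PTPN1, a phosphatase that switches off the insulin and IGF receptors, rose at 4 h from 24.8 ± 2.24 to 49.8 ± 9.66 TPM (log2 1.04, SE 0.13, adjusted p = 4.06e-04, edgeR) and was 15.6 ± 2.15 TPM at 12 h (log2 -0.36, SE 0.13, adjusted p = 0.0432, edgeR). That 12 h call was lost in 12 of 22 alternatives, and without any of cow4285, cow6464, cow7514, cow4291, cow6456, cow5266, cow6314 or cow7475 (adjusted p up to 0.138). SH2B2, an adaptor of the insulin receptor, rose at 4 h (log2 0.90, adjusted p = 0.0339, edgeR) and 12 h (log2 1.51, adjusted p = 4.48e-04, edgeR). Its 4 h call was lost on leaving out any of the 4 controls, cow6455 or cow6456 (adjusted p up to 0.0895).

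Of 20 PI3K, AKT and FOXO genes, 2 rose at 4 h, and 1 rose and 10 fell at 12 h. The share passing was 10.0% at 4 h and 55.0% at 12 h, against 14.2 and 48.9% of all genes tested. PIK3R1, the regulatory subunit of PI3K, was 25.7 ± 8.17 TPM in controls and 8.75 ± 1.03 TPM at 12 h (log2 -1.42, SE 0.21, adjusted p = 1.97e-04, edgeR). PDPK1, the kinase that activates AKT, fell from 8.23 ± 1.23 to 1.42 ± 0.597 TPM (log2 -2.26, SE 0.29, adjusted p = 7.08e-05, edgeR). FOXO3, a transcription factor that AKT holds out of the nucleus, fell from 12.5 ± 3.17 to 2.11 ± 0.480 TPM (log2 -2.27, SE 0.30, adjusted p = 8.67e-05, edgeR). GSK3B, a kinase that AKT inhibits, fell by 1.12 (SE 0.18, adjusted p = 2.99e-04, edgeR). At 4 h, FOXO1 (log2 0.52, SE 0.13, adjusted p = 0.0238) and the AKT phosphatase PHLPP2 (log2 0.97, SE 0.25, adjusted p = 0.0244) rose. FOXO1 lost its call without cow7367, cow4291 or cow5341 (adjusted p up to 0.0627) and PHLPP2 without cow4285, cow6464 or cow5341 (adjusted p up to 0.0617).

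Of 19 TSC and mTOR genes, 1 rose and 2 fell at 4 h, and 2 rose and 9 fell at 12 h. The share passing was 15.8% at 4 h, near the 14.2% of all genes tested, and 57.9% at 12 h, against 48.9%. MTOR, the kinase itself, was 16.0 ± 1.21 TPM in controls and 5.29 ± 1.05 TPM at 12 h (log2 -1.31, SE 0.12, adjusted p = 1.17e-05, edgeR). RPTOR, its scaffold in complex 1, fell by 1.46 (SE 0.13, adjusted p = 9.52e-06), and the inhibitor DEPTOR fell by 1.73 (SE 0.23, adjusted p = 9.55e-05, edgeR). RHEB, the GTPase that activates mTOR, rose at both times, from 149 ± 9.30 TPM to 225 ± 31.2 at 4 h (log2 0.63, adjusted p = 0.0125, edgeR) and 212 ± 19.7 at 12 h (log2 0.83, adjusted p = 5.19e-04, edgeR). At 4 h SESN1 (log2 -0.94, SE 0.20, adjusted p = 0.00862) and DEPDC5 (log2 -0.53, SE 0.15, adjusted p = 0.0324), which restrain mTOR complex 1, fell. The DEPDC5 call was lost without cow7367, cow7514, cow4291, cow5341 or cow6455 (adjusted p up to 0.0930).

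The mannose 6-phosphate tag is the signal that IGF2R reads on lysosomal enzymes. Of the 7 genes that build or read this tag or sort its receptors, none passed at 4 h with edgeR, DESeq2 or limma after adjustment. At an unadjusted p under 0.05 there were 0 with edgeR, 0 with limma and 2 with DESeq2 at 4 h. There was 1 with the length offset and 1 without cow6455 and cow6314 (edgeR). At 12 h 5 rose and 1 fell, 85.7% of the list against 48.9% of the genes tested. By direction, 71.4% of the list rose and 14.3% fell at 12 h, where 23.6 and 25.3% of all genes tested did. GNPTG (log2 0.81, SE 0.13, adjusted p = 2.59e-04) and GNPTAB (log2 0.57, SE 0.10, adjusted p = 7.79e-04), subunits of the enzyme that starts the tag, rose. NAGPA, which uncovers the tag, rose from 8.01 ± 0.605 to 10.8 ± 0.517 TPM, a TPM ratio of 1.35. On the scaled counts NAGPA rose 1.68-fold (log2 0.75, SE 0.12, adjusted p = 2.85e-04, edgeR). GGA2, an adaptor that sorts the receptors, rose by log2 0.47 (SE 0.09, adjusted p = 7.79e-04, edgeR). IGF2R itself fell at 12 h with edgeR (log2 -0.55) and on log2(TPM + 1) (-0.85, adjusted p = 0.00233, limma), but with the length offset it was at -0.09 (adjusted p = 0.594, edgeR), where 5 of the 7 sorting genes rose and none fell. On log2(TPM + 1), where the median of all genes was -0.25, 2 of the 7 passed as higher and 3 as lower, and GNPTAB (adjusted p = 0.146) and GGA2 (adjusted p = 0.265) lost their calls (limma). Of the 14481 genes tested, 1509 were higher and 5631 lower on log2(TPM + 1), and 3436 and 3323 with the length offset. Of the 3 IGF2 mRNA-binding proteins, IGF2BP1 was listed at 0 in every cow, IGF2BP3 was under the count minimum, and IGF2BP2 did not pass at either time.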

How the data were processed

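Whole luteal tissue of 12 cows, 4 in each of 3 groups, was used for RNA sequencing. Per the labels, the authors aligned reads with STAR 2.5 and quantified genes with RSEM 1.3 on ARS-UCD 1.2; the strand setting is not given in the sources used here. The deposited tables hold, per cow and for 27270 genes, an expected count, TPM, FPKM (not used) and the mean transcript length. The deposited expected counts were set to whole numbers. A gene was tested if 4 or more libraries held 10 or more counts of it (14481 genes). Counts were scaled by TMM and the 3 groups fitted together with edgeR 4.0.16 (quasi-likelihood), and p was adjusted by Benjamini-Hochberg within each comparison, with a threshold of 0.05. Deposited TPM gave levels, spreads and makeup. Fold changes from edgeR are on the TMM-scaled counts, so they can differ from the ratio of the mean TPM printed beside them. The fits were tested on simulated data.

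The members and lists were chosen with earlier results of these data known. Named genes are the 10 members, up to 4 genes of each list per comparison with control with the smallest p among those passing, and the 3 genes nearest in pattern to 1 ligand, 1 receptor and 1 binding protein, with a mean of at least 5 CPM. Marker lists name endothelial, pericyte and smooth muscle, fibroblast, macrophage and monocyte, neutrophil, T and NK lymphocyte, steroidogenic luteal and erythrocyte genes; HBA1 was not analysed here. Alternatives were DESeq2 1.42.0, RLE scaling, dropping the count minimum or raising it to 50, only the 2 groups compared, limma 3.58.1 on log2(TPM + 1) and log2(TPM + 0.1), no mitochondrially encoded genes, a transcript length offset (a spline of 5 degrees of freedom per library), each cow left out, cow6455 and cow6314 left out together, and TMM-scaled CPM for the makeup. Scripts ran in R 4.3.3 and in Python 3.11.15, the latter with scipy 1.17.1 for intervals, matplotlib 3.10.9 for figures, and numpy 2.4.6 and pandas 2.3.3. Depth was 10263310 to 22600213 expected counts, and SEs hold counting error and cow-to-cow spread. Each edgeR SE was the absolute log2 fold change divided by the square root of the quasi-likelihood F statistic. The 95% intervals of log2 fold changes were taken from it by a normal approximation, which is narrow with 4 cows per group.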

Additional observations from a re-analysis of the deposited data

Results flagged for a closer look

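Of 120 groups of 4 cows (40 genes in 3 groups), 7 held a cow that stood apart from the other 3 of its group by Dixon's test at the 95% level, where chance gives about 1 in 20. Among controls, cow4285 had 969 TPM of IGFBP7 against 641 to 663 in the others, and 1059 TPM of HTRA1 against 654 to 688. Cow7367 had 0.0400 TPM of IGFBP1 against 0, and 21.4 TPM of PTPN1 against 25.7 to 26.1. The IGFBP1 value was 1 count against 0 in the other controls. Any value above 0 would then stand apart, so this case among the 7 shows nothing. Cow7514 had 12.4 TPM of PRLR against 7.22 to 7.35. At 12 h, cow5266 had 11.6 TPM of FOXO1 against 15.2 to 15.9, and cow7475 had 7.21 TPM of PIK3R1 against 9.22 to 9.29. Cow4285 was also the control with the most pericyte and smooth muscle marker RNA (2107 TPM against 687 to 977).

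The response at 12 h differed from that at 4 h for 30 of the 40 genes, tested directly as 12 h against 4 h with edgeR (adjusted p under 0.05), where 46.7% of all genes tested passed. Of the 10 IGF axis genes these were IGF1 (log2 -0.76), IGF2R (-0.74), IGFBP5 (1.18) and IGFBP7 (0.98). Higher at 12 h than at 4 h were also IGFBP1 (log2 1.31), SESN1 (1.26), HTRA1 (1.04), NAGPA (0.79), GNPTG (0.72), DEPDC5 (0.58), GNPTAB (0.38) and GGA2 (0.32), of which DEPDC5, GNPTAB and GGA2 did not pass on log2(TPM + 1) with limma (0.28, 0.10 and 0.05), nor GNPTAB and GGA2 without cow6455 and cow6314 with edgeR (0.30 and 0.22). Lower at 12 h than at 4 h were PDPK1 (log2 -2.45), PAPPA (-2.22), FOXO3 (-2.17), PTPN11 (-1.85), DEPTOR (-1.82), PRLR (-1.71), GHR (-1.62), PTPN1 (-1.40), INSR (-1.36), RPTOR (-1.18), PHLPP2 (-1.14), SOS2 (-1.13), MTOR (-0.99), JAK2 (-0.95), GSK3B (-0.94), SOS1 (-0.84), PIK3R1 (-0.76) and FOXO1 (-0.72), of which PIK3R1 did not pass with the length offset (-0.50). IGF2R did not pass with it either (-0.17). In control, 4 h and 12 h cows respectively, mean TPM was 24.8, 49.8 and 15.6 for PTPN1, 20.7, 29.1 and 14.5 for FOXO1, and 5.02, 9.69 and 3.62 for PHLPP2. In the same order it was 23.1, 11.8 and 23.7 for SESN1, and 14.2, 9.71 and 11.9 for DEPDC5. IGFBP2 and IGFBP3 passed at both times, and their 12 h and 4 h responses were not shown to differ (adjusted p = 0.906 and 0.214). These pathway genes were named for passing against control in the same libraries, so a difference between times is not independent evidence.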

How the results depend on the processing

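No paired analysis was possible because the labels give each cow a tag of its own, and the replicate numbers used here only name the cows in accession order. The number of IGF axis genes called at 4 h (2) was 4 with DESeq2, 1 with only the 2 groups compared, and 1 with limma on either TPM scale, and ran from 0 (without control cow7367 or cow7514) to 3 with 1 cow left out. The number called at 12 h (8) was 4 with limma on either TPM scale, and ran from 4 (without cow5266) to 9 with 1 cow left out. All genes called at 12 h (7081) were 7140 on log2(TPM + 1) and 7209 on log2(TPM + 0.1), and 6145 to 7216 with 1 cow left out. Pathway genes called at 4 h (11) were 17 with DESeq2, and 8 to 14 with 1 cow left out. All genes called at 4 h (2062) ran from 1278 (without cow7514) to 2179, with 1309 without cow5341. They were 2750 with DESeq2, 1655 with only the 2 groups compared, 1635 on log2(TPM + 1) and 1580 on log2(TPM + 0.1). Between 12 h and 4 h, 3 to 4 of the 10 genes passed with 1 cow left out, and 5852 to 6816 of all genes did. Of 660 values of the 10 genes under the alternatives, 573 kept their direction and side of the threshold, 61 lost a call, 11 gained one and 15 turned in direction. None of those 15 was called. They were IGFBP7 at 4 h (0.00 to 0.13 with 1 cow left out), IGFBP4 at 12 h (0.01 to 0.07), and, between 12 h and 4 h, IGF2 (-0.13 on log2(TPM + 1) and log2(TPM + 0.1)), IGF1R (0.23 with the length offset, 0.08 to 0.20 with 1 cow left out), IGFBP2 (0.10 without cow6455 and cow6314, 0.03 to 0.32 with 1 cow left out) and IGFBP6 (0.11). Leave-one-out ranges were -0.10 to 0.13 for IGFBP7 at 4 h, -0.25 to 0.07 for IGFBP4 at 12 h, and, between the times, -0.24 to 0.20 for IGF1R, -0.28 to 0.32 for IGFBP2 and -0.21 to 0.11 for IGFBP6. Of 1384 values of the named pathway genes, 52 lost a call and none turned. The causes were not tested. On TMM-scaled CPM, which is not per length, 7 of 18 binding protein percentages moved by less than 1 SD and 11 by more. Between 12 h and 4 h, limma on log2(TPM + 1) gave no call for DEPDC5 (0.28, adjusted p = 0.142), GNPTAB (0.10, adjusted p = 0.560) or GGA2 (0.05, adjusted p = 0.772). Without cow6455 and cow6314, edgeR gave none for GNPTAB (0.30, adjusted p = 0.0610) or GGA2 (0.22, adjusted p = 0.0533), and with the length offset none for PIK3R1 (-0.50, adjusted p = 0.0645). IGF1 had 21 to 75 counts per cow and IGFBP2 33 to 231.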
